A study of Homo sapiens with 24 samples.

Results

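The syndecans and glypicans analysed here are the 8 genes *SDC1*, *SDC2*, *SDC3*, *SDC4*, *GPC1*, *GPC2*, *GPC3* and *GPC4*, which were found in the count table by their Ensembl identifiers and chosen by name, 8 of the 60675 identifiers counted. RNA was sequenced from MIA PaCa-2 cells, a human pancreatic carcinoma line, in 8 groups of 3 libraries each. The CTRL cells carried an empty doxycycline-inducible (Tet-On) lentiviral vector and a red fluorophore. The C/EBPδ-inducible cells carried the same vector with *CEBPD*, the cDNA of the transcription factor C/EBPδ, and a green fluorophore, and were a pool of clones. Each line was collected after 0, 8, 24 and 48 h of doxycycline, a drug that switches such a vector on. The labels give 2 ug/ml for every library, those of 0 h included, while the study's methods leave the cells of 0 h untreated. The 3 libraries of a group came from parallel wells, so the p-values below measure the spread between wells of one cell population. The clones, the fluorophore and the *CEBPD* construct differ together between the lines, and what each contributes to a difference between lines cannot be told apart. No untreated library was sequenced at 8, 24 or 48 h, so within a line doxycycline and time in culture cannot be told apart.

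Syndecans are core proteins that span the cell membrane, whereas glypicans are held at the outer face of the membrane by a glycosylphosphatidylinositol anchor. Both carry chains of heparan sulfate, a sulfated sugar polymer that binds growth factors, morphogens and extracellular matrix and presents them to their receptors. Syndecans also reach into the cell with a short cytoplasmic tail that links the matrix to the actin cytoskeleton, and in epithelial tumours they are known for roles in adhesion, migration and growth factor signalling. *SDC1* is the main syndecan of epithelia and *SDC4* sits in focal adhesions, where it works with integrins and protein kinase C alpha. *SDC3* is best known from nervous tissue and muscle, and *SDC2* from mesenchymal cells. *GPC1* is the most widely expressed glypican and is raised in many pancreatic carcinomas, *GPC3* is a fetal and liver cancer glypican, and *GPC2* is largely neuronal.

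The data show that 4 of the 8 genes were expressed at moderate to high levels in these cells. Their levels varied between the lines or over time, and not all in the same direction. *SDC4* and *SDC1* were lower in C/EBPδ-inducible than in CTRL cells at every time, and *SDC3* was higher at 0, 24 and 48 h. *GPC1* differed past the threshold at no time when 2 complete groups were tested alone. At 8 h it did so with all 24 libraries in one model, and also when CTRL 8 h replicate 3 was left out. *SDC4* fell by 24 h in the C/EBPδ-inducible cells, and the 24 h change differed between the lines, with an interaction of −0.47 ± 0.0482 on the log2 scale (SE, adjusted p = 3.76e-10 by edgeR's quasi-likelihood test). By 48 h *SDC4* had fallen in both lines. *SDC2*, *GPC3* and *GPC4* were at or near 0 reads throughout, and *GPC2* was low.

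The promoters of *SDC1*, *SDC4* and *SDC3* are shown because the first 2 were lower and the third higher in the cells that carry *CEBPD*. Each sequence is taken from RefSeq (GRCh38.p14), runs 5′ to 3′ on the gene's minus strand, and holds the 250 bases before the annotated start and the first 12 bases after it, so that it ends inside the first exon. Capitals mark a match to the motif searched, TTGCNNAA or TTNNGCAA, which are the reverse complement of each other and stand for the 8-base element of C/EBP factors with its middle left free on one side.
SDC1 (chr2:20225119-20225380): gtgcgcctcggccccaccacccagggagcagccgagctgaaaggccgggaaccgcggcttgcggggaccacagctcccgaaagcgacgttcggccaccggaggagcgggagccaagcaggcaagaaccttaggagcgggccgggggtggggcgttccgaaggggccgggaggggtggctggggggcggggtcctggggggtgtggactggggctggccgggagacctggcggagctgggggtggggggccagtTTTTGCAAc
SDC4 (chr20:45348413-45348674): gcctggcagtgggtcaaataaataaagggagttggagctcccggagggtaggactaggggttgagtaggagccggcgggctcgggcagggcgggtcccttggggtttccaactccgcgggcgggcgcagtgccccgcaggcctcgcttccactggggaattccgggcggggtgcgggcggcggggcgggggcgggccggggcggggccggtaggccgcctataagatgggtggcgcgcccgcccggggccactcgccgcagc
SDC3 (chr1:30908747-30909008): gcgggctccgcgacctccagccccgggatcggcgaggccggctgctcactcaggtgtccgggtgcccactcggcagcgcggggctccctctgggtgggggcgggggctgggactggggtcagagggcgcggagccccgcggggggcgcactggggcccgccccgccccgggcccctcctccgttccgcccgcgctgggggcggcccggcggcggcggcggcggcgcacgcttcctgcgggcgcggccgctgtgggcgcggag
The only match in the windows searched, TTTTGCAA, lay 3 bases after the first transcribed base of this *SDC1* start. RefSeq gives *SDC1* another start, and its window held no match. Across the 7 windows of *SDC1*, *SDC3*, *SDC4*, *GPC1*, *GPC2* and *GPC4*, each 300 bases with 50 after the start, 1 held the motif, against 3673 of 35116 windows (10.5%) of all genes. A match describes the letters of the window and no binding was measured. The windows were rich in G and C, from 66% in *GPC2* to 84% in *SDC3*. Promoters of *SDC2* and *GPC3* were not used here.

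The genes lie on several chromosomes of the human genome (GRCh38, GENCODE 44). *SDC1* (ENSG00000115884) spans chromosome 2, 20200797 to 20225433, and *SDC4* (ENSG00000124145) spans chromosome 20, 45325288 to 45348424, both on the minus strand. *SDC3* (ENSG00000162512) spans chromosome 1, 30869466 to 30908758 on the minus strand, and *SDC2* (ENSG00000169439) chromosome 8, 96493813 to 96611790 on the plus strand. Among the glypicans, *GPC1* (ENSG00000063660) spans chromosome 2, 240435663 to 240468076 on the plus strand and *GPC2* (ENSG00000213420) chromosome 7, 100169606 to 100177381 on the minus strand. *GPC3* (ENSG00000147257, chromosome X, 133535745 to 133987100) and *GPC4* (ENSG00000076716, chromosome X, 133300103 to 133415489) lie near each other on the minus strand of the X chromosome. No exon of the 8 genes overlaps an exon of another counted gene.

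The libraries held between 12731237 and 22598595 reads counted in genes, with a median of 18959363.5. Levels are given below as CPM after library sizes were adjusted by the trimmed mean of M-values (TMM), whose factors ran from 0.961 to 1.03. The smallest level that can be told from 0, set at 3 reads, was 0.133 to 0.236 CPM depending on the library, and such floors cover counting error only. *CEBPD* itself, whose construct and endogenous reads cannot be told apart in the counts, was higher at each time of doxycycline than at 0 h in the inducible cells, with 21.5 ± 2.30 CPM (SD, n = 3) at 0 h, 246 ± 17.03 at 8 h, 308 ± 10.9 at 24 h and 205 ± 6.50 at 48 h. In CTRL cells its group means lay between 1.90 ± 0.525 CPM at 8 h and 4.01 ± 0.637 CPM at 48 h. At 0 h *CEBPD* was already higher in the inducible line by 2.44 ± 0.106 (SE, adjusted p = 1.01e-19) on the log2 scale, so the comparison of lines at 0 h is not one without *CEBPD*. The log2 difference between lines was 7.02 ± 0.118 (SE, adjusted p = 2.32e-13) at 8 h, 6.42 ± 0.0583 (SE, adjusted p = 5.31e-48) at 24 h and 5.67 ± 0.0862 (SE, adjusted p = 6.16e-16) at 48 h. Against 0 h the log2 change in inducible cells was 3.52, 3.83 and 3.23, and that in CTRL cells −1.02 (adjusted p = 0.0122 by edgeR), −0.15 (0.604) and 0.017 (0.942). The CTRL value of 8 h passed the threshold with RLE size factors, with DESeq2, without the filter on low counts and with all 24 libraries in one model. The interactions were 4.56, 3.99 and 3.21 on the log2 scale. The epithelial markers did not all have their highest library in the same line. The summed level of 8 pancreatic epithelial markers was 2270 to 3150 CPM in CTRL libraries and 179 to 314 CPM in C/EBPδ-inducible libraries. The keratins *KRT8* and *KRT18* had the highest medians over the 24 libraries, 540 and 505 CPM. *KRT8*, *KRT18*, *KRT19*, *MUC1* and *SOX9* had their highest library in CTRL cells and their lowest in inducible cells at 24 h. The low markers *KRT7*, *EPCAM* and *CDH1* instead had their highest library in inducible cells, at 5.48, 2.29 and 6.06 CPM. For *CDH1* the lowest library, at 0 CPM, was an inducible one as well. Such highest and lowest values are single libraries of the 24 and not a comparison of the lines. None of the 8 was at the floor in every library. The 6 fibroblast markers summed to 448 to 686 CPM in CTRL and 136 to 254 CPM in inducible libraries, with *DCN* at the floor throughout. Nearly all of that sum was *COL1A2*, a collagen I chain, which was lower in inducible cells at 0 h (−1.41 on the log2 scale, adjusted p = 2.5e-29 by edgeR). A pair of low fibroblast markers went the other way: *COL3A1* was higher at 0 h (1.56, adjusted p = 0.000214 by edgeR), and *PDGFRB* had 0 reads in the CTRL libraries of 0 h and 0.547 to 0.692 CPM in the inducible ones (adjusted p = 7.06e-07 by edgeR). The 4 endothelial markers summed to 0 to 0.417 CPM in CTRL and 0.461 to 2.71 CPM in inducible libraries, ranges that do not overlap, with *VWF* and *KDR* at the floor and *CDH5* higher at 0 h in inducible cells (2.82, adjusted p = 4.48e-06 by edgeR). All 4 acinar and endocrine markers (*PRSS1*, *CPA1*, *INS*, *GCG*) were at the floor. The part of these marker differences in the syndecan values below was not tested. In RNA from bulk cultures, fewer cells that express a gene and less RNA of it per cell cannot be told apart.

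*SDC4* was the most abundant transcript of the set per length, with a median over the 24 libraries of 47.7 CPM per kb of merged exons. On the same scale the median was 14.6 for *SDC1*, 8.42 for *SDC3*, 5.49 for *GPC1* and 0.134 for *GPC2*. Of the summed CPM per kb of all 8 genes, *SDC4* made up 69.7% in CTRL cells at 0 h and 60.2% in C/EBPδ-inducible cells at 0 h. At 48 h its share was 64.2% in CTRL and 50.7% in inducible cells. The share of *SDC3* over the same 4 groups was 6.59%, 13.6%, 9.74% and 20.9%, whereas that of *SDC1* stayed between 17.1% and 19.9% in all 8 groups. The summed syndecan level at 0 h was 113 ± 2.65 CPM per kb (SD, n = 3) in CTRL and 64.1 ± 1.14 in inducible cells, and at 48 h it was 81.3 ± 2.28 and 51 ± 0.456. The syndecan pool of the inducible cells was thus the smaller one at each of these times, with a larger share of *SDC3*. *GPC1* supplied 95% to 98.6% of the glypican level per length in each group.

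**Figure D1:**
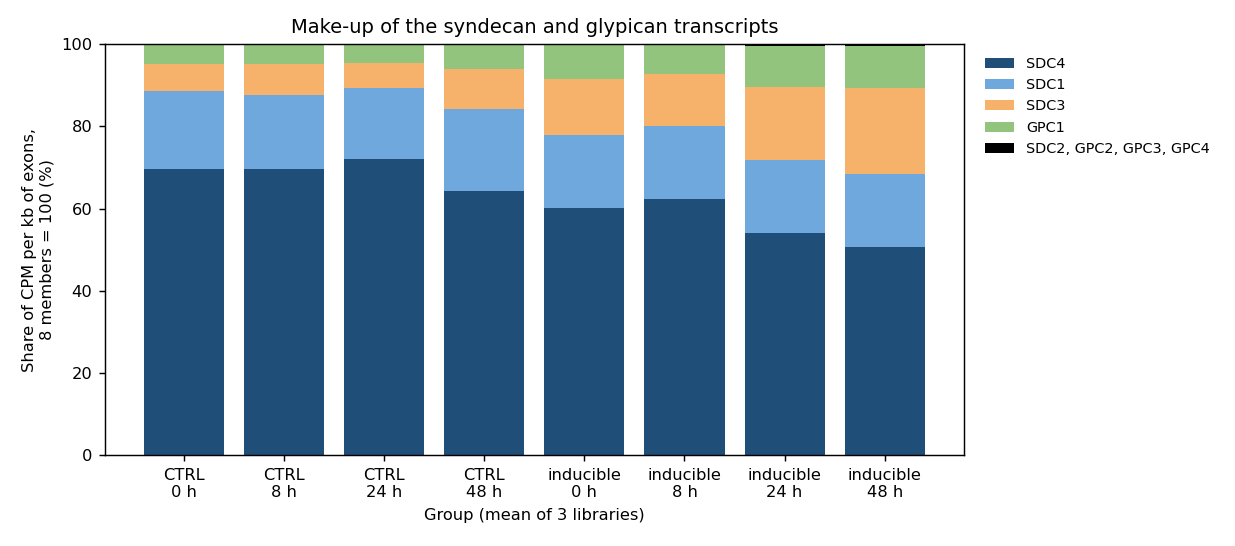
Share of each gene in the summed CPM per kb of exons of the 8 syndecan and glypican genes (y axis, %), as the mean of 3 libraries for each group of line and hours of doxycycline (x axis). *SDC4* is the largest share in every group, from 72.1% in CTRL cells at 24 h to 50.7% in inducible cells at 48 h, and *SDC3* is largest in inducible cells at 48 h, at 20.9%.

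The first comparison set the lines against each other at each time. Of the 4 genes tested at 0 h, 3 passed a false discovery rate (FDR) of 0.01 by the quasi-likelihood test of edgeR (p-values adjusted over all genes after Benjamini and Hochberg), where 45.3% of all genes tested passed. The counts were 2 of 4 at 8 h against 32.5% of all genes, 3 of 5 at 24 h against 47.8%, and 3 of 5 at 48 h against 38.5%. The members' median log2 difference was −0.42 at 0 h and 0.093 at 24 h, and that of all genes 0.00978 and 0.00805. *GPC2* entered the test at 24 and 48 h only, since it was too low in the other groups. At 24 h it did so through its inducible libraries. *SDC2*, *GPC3* and *GPC4* passed the filter on low counts in no comparison. With so large a share of all genes past the threshold, the counts of members do not set them apart, and the size of each difference is the more useful measure.

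*SDC4*, the focal adhesion syndecan, was measured in CTRL libraries at 212, 216 and 219 CPM at 0 h, 199, 198 and 203 CPM at 8 h, 216, 216 and 214 CPM at 24 h and 137, 150.3 and 149 CPM at 48 h. In C/EBPδ-inducible libraries it was 108, 113 and 109.7 CPM at 0 h, 104, 105 and 103 CPM at 8 h, 80.98, 75.8 and 78.6 CPM at 24 h and 77.9, 74.4 and 74.6 CPM at 48 h. Every CTRL library was above every inducible library, the lowest CTRL values being those of 48 h. The log2 difference between lines was −0.98 ± 0.0333 (SE, adjusted p = 9.7e-23) at 0 h, −0.93 ± 0.0483 (SE, adjusted p = 3.64e-09) at 8 h, −1.45 ± 0.0364 (SE, adjusted p = 6.33e-32) at 24 h and −0.95 ± 0.0550 (SE, adjusted p = 2e-09) at 48 h. Expressed as a ratio to the CTRL level, *SDC4* was at 0.509 at 0 h, 0.527 at 8 h, 0.366 at 24 h and 0.516 at 48 h.

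At 8 h the change of *SDC4* was −0.085 in CTRL cells (adjusted p = 0.331 by edgeR) and −0.076 in inducible cells (adjusted p = 0.0482 by edgeR). Within CTRL cells, *SDC4* was −0.014 on the log2 scale at 24 h relative to 0 h (interval −0.0739 to 0.0462 at ± 1.96 SE, adjusted p = 0.838 by edgeR) and fell at 48 h, with a log2 change of −0.57 ± 0.0459 (SE, adjusted p = 2.78e-07). Within inducible cells it had fallen already at 24 h, with −0.49 ± 0.0392 (SE, adjusted p = 1.18e-12), and at 48 h the log2 change was −0.56 ± 0.0390 (SE, adjusted p = 8.3e-16). The same 0 h libraries enter each of these time comparisons of a line. The 24 h change was more negative in the inducible cells, with an interaction of −0.47 ± 0.0482 (SE, adjusted p = 3.76e-10), whereas at 48 h the changes of the lines differed by −0.00018 with an interval of −0.106 to 0.106 (adjusted p = 1). At 8 h the interaction was 0.036 (interval −0.0686 to 0.140). The fall seen in inducible cells by 24 h was thus seen in CTRL cells at 48 h, the interval of that last comparison holding differences of up to 0.106 on the log2 scale. The groups ran, from lowest to highest mean, from inducible cells at 48, 24, 8 and 0 h to CTRL cells at 48, 8, 24 and 0 h. Among neighbours in that order, the libraries overlapped for inducible cells at 48 and 24 h and for CTRL cells at 24 and 0 h only.

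*SDC1*, the epithelial syndecan, was at 76.96, 82.1 and 82.5 CPM in CTRL libraries at 0 h, 71.6, 76.1 and 67.5 CPM at 8 h, 70.9, 70.04 and 70.6 CPM at 24 h and 63.2, 59.8 and 64.2 CPM at 48 h. The inducible libraries held 42.98, 45.6 and 45.95 CPM at 0 h, 41.2, 41.5 and 41.5 CPM at 8 h, 37.3, 33.5 and 35.7 CPM at 24 h and 36.4, 34.9 and 38.2 CPM at 48 h. The lines did not overlap at any time, and the highest inducible library was below the lowest CTRL library. The log2 difference between lines was −0.85 ± 0.0459 (SE, adjusted p = 3.79e-17) at 0 h, −0.78 ± 0.0644 (SE, adjusted p = 4.03e-07) at 8 h, −0.98 ± 0.0470 (SE, adjusted p = 8.73e-22) at 24 h and −0.79 ± 0.0641 (SE, adjusted p = 9.93e-08) at 48 h. *SDC1* fell with time in each line by edgeR's test, with log2 changes in CTRL cells of −0.20 ± 0.0408 (SE, adjusted p = 0.000673) at 24 h and −0.37 ± 0.0573 (SE, adjusted p = 0.000123) at 48 h, and in inducible cells of −0.34 ± 0.0528 (SE, adjusted p = 3.43e-06) and −0.32 ± 0.0531 (SE, adjusted p = 2.32e-06). None of these 4 calls held under the linear model per gene, where the adjusted p was 0.08 and 0.0127 in CTRL cells and 0.0366 and 0.0198 in inducible cells. At 8 h its changes did not pass the threshold, at −0.14 in CTRL cells (adjusted p = 0.232 by edgeR) and −0.11 in inducible cells (adjusted p = 0.0532 by edgeR). The CTRL call at 24 h rested on the library CTRL 0 h replicate 3, without which the change was −0.18 (adjusted p = 0.0129 by edgeR). No difference between the lines' changes passed the threshold for *SDC1*, the interaction being 0.056 (interval −0.0900 to 0.202) at 8 h, −0.13 (−0.260 to −0.00526) at 24 h and 0.038 (−0.112 to 0.187) at 48 h, so a difference of up to 0.26 in size at 24 h lies inside the interval.

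*SDC3* went the other way between the lines. Its CTRL libraries read 51.6, 56.96 and 56.9 CPM at 0 h, 62.98, 57.3 and 54.8 CPM at 8 h, 49.6, 47.3 and 51.2 CPM at 24 h and 63.5, 55.4 and 59.8 CPM at 48 h. Its inducible libraries read 68.4, 67.04 and 66.6 CPM at 0 h, 59.2, 56.6 and 56.9 CPM at 8 h, 74.05, 68.5 and 68.2 CPM at 24 h and 81.8, 88.9 and 81.6 CPM at 48 h. The lines overlapped at 8 h and at no other time, and the inducible libraries of 48 h were the highest of all 24. The log2 difference between lines was 0.28 ± 0.0461 (SE, adjusted p = 3.13e-06) at 0 h, −0.0054 ± 0.0681 (SE, adjusted p = 0.957) at 8 h, 0.51 ± 0.0457 (SE, adjusted p = 5.17e-13) at 24 h and 0.49 ± 0.0618 (SE, adjusted p = 1.14e-05) at 48 h. The call at 0 h was lost under the linear model per gene on log2(CPM + 1) (0.28, adjusted p = 0.0147). Within inducible cells *SDC3* fell at 8 h, with a log2 change of −0.22 ± 0.0392 (SE, adjusted p = 1.02e-05), was 0.057 at 24 h (interval −0.0284 to 0.143) and rose at 48 h by 0.30 ± 0.0413 (SE, adjusted p = 5.67e-08). In CTRL cells no change passed the threshold: 0.11 at 8 h (adjusted p = 0.448 by edgeR), −0.17 at 24 h (0.0174) and 0.11 at 48 h (0.207). Nor did an interaction: −0.30 ± 0.0793 (SE, adjusted p = 0.0265) at 8 h, 0.23 ± 0.0653 (SE, adjusted p = 0.0125) at 24 h and 0.18 ± 0.0767 (SE, adjusted p = 0.148) at 48 h. Some of these values stood close to it: at 8 h the interaction passed without CTRL 8 h replicate 3 (−0.35, adjusted p = 0.00202 by edgeR) or without the filter on low counts (−0.30, adjusted p = 0.00592 by edgeR), at 24 h it passed without CTRL 0 h replicate 1 (0.28, adjusted p = 0.00158 by edgeR) or CEBPD 24 h replicate 3 (0.27, adjusted p = 0.00721 by edgeR), and the CTRL change at 24 h passed without CTRL 0 h replicate 1 (−0.22, adjusted p = 0.000779 by edgeR).

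*GPC1* was the only glypican with a sizeable level. It measured 37.5, 37.3 and 36.1 CPM in CTRL libraries at 0 h, 37.1, 34.3 and 30.8 CPM at 8 h, 31.3, 35.99 and 35.3 CPM at 24 h and 35.6, 30.7 and 34.1 CPM at 48 h. In inducible libraries it measured 35.7, 40.1 and 36.1 CPM at 0 h, 28.1, 29.7 and 28.2 CPM at 8 h, 38.5, 34.8 and 36.1 CPM at 24 h and 41, 35.96 and 37.5 CPM at 48 h. The 3 inducible libraries of 8 h were the lowest of the 24. Between the lines the log2 difference was 0.010 ± 0.0561 (SE, adjusted p = 0.893) at 0 h, −0.23 ± 0.0833 (SE, adjusted p = 0.0344) at 8 h, 0.093 ± 0.0576 (SE, adjusted p = 0.169) at 24 h and 0.17 ± 0.0782 (SE, adjusted p = 0.0792) at 48 h. The 8 h value passed with all 24 libraries in one model, at −0.23 (adjusted p = 0.00955 by edgeR), and without CTRL 8 h replicate 3, at −0.31 (adjusted p = 0.00298 by edgeR). Against its own 0 h, *GPC1* fell in inducible cells at 8 h, with a log2 change of −0.38 ± 0.0574 (SE, adjusted p = 6.75e-07) that did not pass under the linear model per gene (−0.36, adjusted p = 0.0199), and at 24 and 48 h its changes were −0.040 (interval −0.151 to 0.0711) and 0.0050 (−0.109 to 0.119). The interaction at 8 h was −0.26 (−0.454 to −0.0634, adjusted p = 0.131 by edgeR), so the fall was not shown to differ from the CTRL change of −0.089. The later CTRL changes were −0.12 at 24 h (adjusted p = 0.177 by edgeR) and −0.14 at 48 h (0.131), and the interactions 0.086 (−0.0737 to 0.246) and 0.14 (−0.0493 to 0.334).

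**Figure D2:**
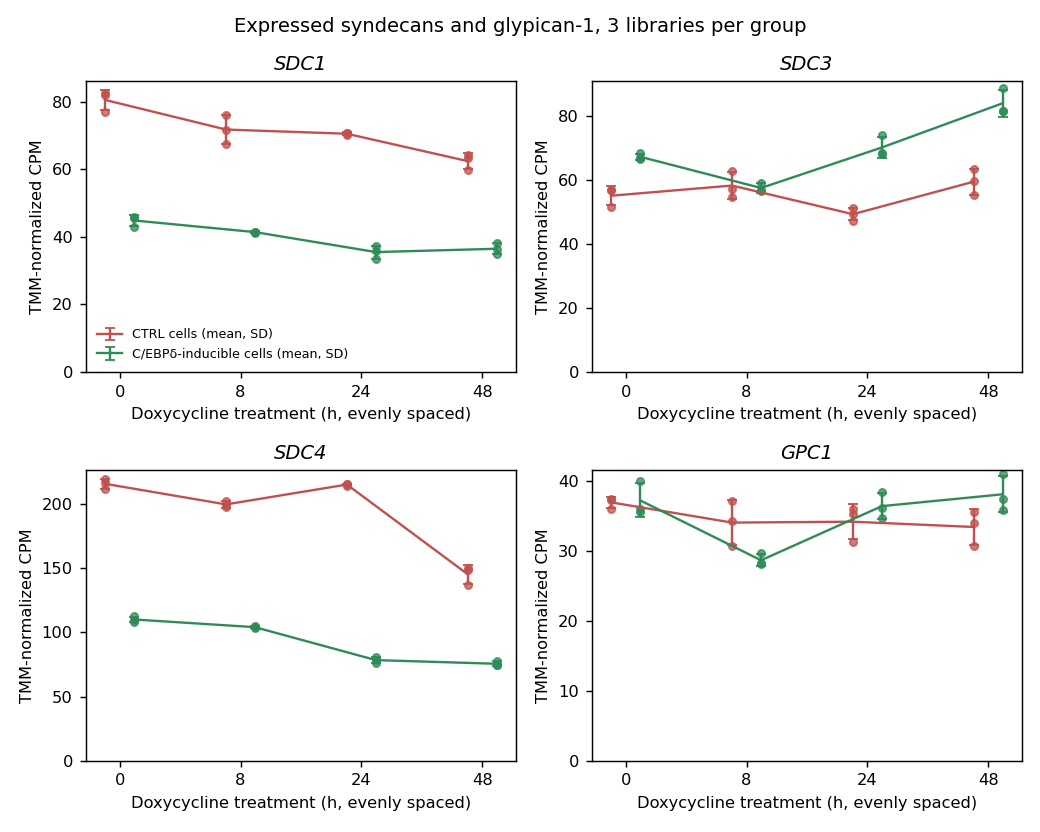
TMM-normalised CPM (y axis, from 0) of *SDC1*, *SDC3*, *SDC4* and *GPC1* against hours of doxycycline (x axis, evenly spaced), with a point for each library, lines through the group means and bars of 1 SD over 3 libraries, CTRL cells in red and C/EBPδ-inducible cells in green. The lines stay apart at all times for *SDC1* and *SDC4*, *SDC4* drops at 48 h in CTRL cells (145 ± 7.53 CPM) and at 24 h in inducible cells (78.5 ± 2.57 CPM), and *SDC3* is highest in inducible cells at 48 h.

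Counted over the 8 genes, the time comparisons gave few calls in CTRL cells early on. None of 4 genes tested passed at 8 h by edgeR, where 2.09% of all genes did; 1 was under an unadjusted p of 0.05 by edgeR, and DESeq2 called 0. At 24 h 1 of 4 passed against 7.15% of all genes, and at 48 h 2 of 4 against 31.0%. In inducible cells 2 of 5 passed at 8 h against 32.4% of all genes, 2 of 5 at 24 h against 16.4%, and 4 of 5 at 48 h against 39.4%. The 4 at 48 h include *GPC2*, which entered that test through its 48 h libraries. For the interactions the counts were 0 of 5 at 8 h against 2.10%, 1 of 5 at 24 h against 6.55%, and 0 of 5 at 48 h against 6.05%. In the interactions with 0 calls by edgeR, 2 genes at 8 h and 1 at 48 h were under an unadjusted p of 0.05, and DESeq2 called 0 in each.

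**Figure D3:**
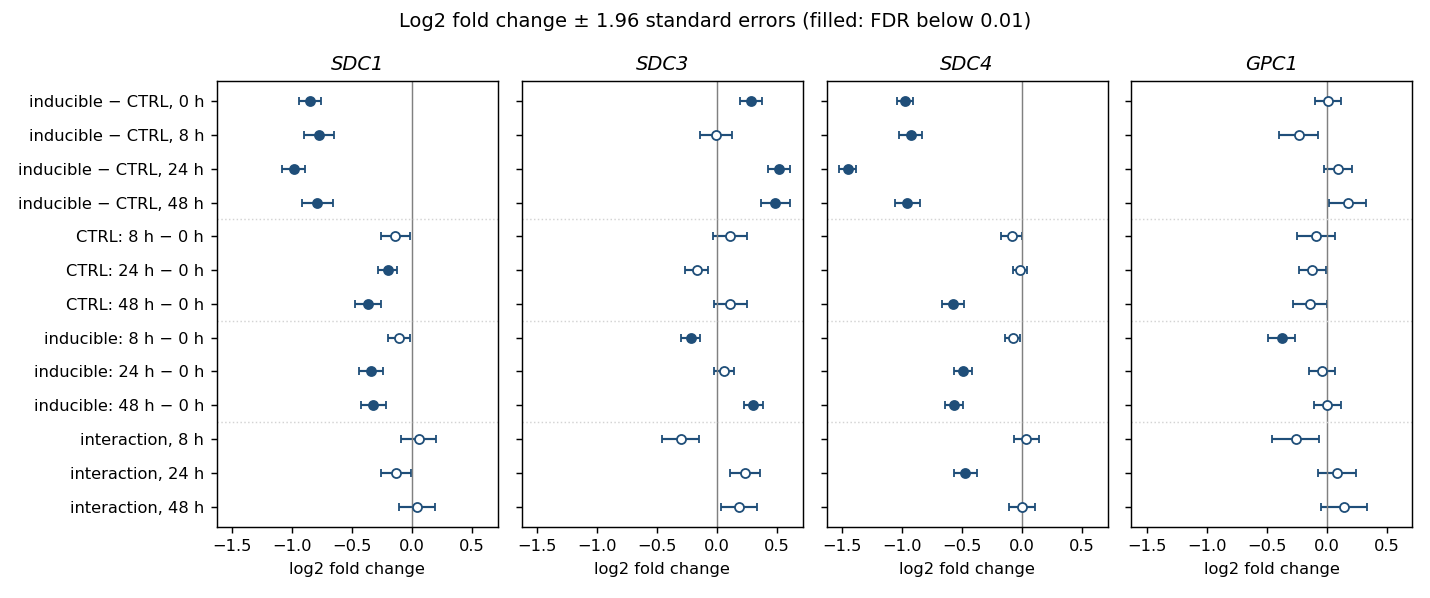
Log2 fold change (x axis) of *SDC1*, *SDC3*, *SDC4* and *GPC1* in the 13 comparisons (y axis: inducible minus CTRL cells at each time, each time minus 0 h within a line, and the interaction of line and time), with bars of ± 1.96 standard errors and filled points where the FDR was below 0.01. *SDC4* has the most negative value, −1.45 between lines at 24 h, and is the only gene with a filled interaction, −0.47 at 24 h.

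*GPC2* was low, and its values are given as reads. The CTRL libraries held 1, 4 and 3 reads at 0 h, 5, 8 and 4 at 8 h, 7, 10 and 9 at 24 h and 14, 15 and 10 at 48 h. The inducible libraries held 7, 11 and 13 reads at 0 h, 10, 12 and 8 at 8 h, 14, 10 and 21 at 24 h and 14, 33 and 19 at 48 h. The 48 h libraries were above those of 0 h in each line. In inducible cells *GPC2* entered the test of 48 against 0 h through its 48 h libraries, where it was high. Its call there is thus not taken as support for a rise. The log2 change was 1.07 ± 0.340 (SE, adjusted p = 0.00815 by edgeR). This call was lost under DESeq2 (adjusted p = 0.0555), under the linear model per gene (0.101), without the filter on low counts (0.0132) and with all 24 libraries in one model (0.0136). It was also lost without CEBPD 0 h replicate 1 (0.0569), CEBPD 0 h replicate 2 (0.0368), CEBPD 48 h replicate 2 (0.105) or CEBPD 48 h replicate 3 (0.0214). With at least 10 counts asked of every library, *GPC2* was not tested there. In CTRL cells *GPC2* did not pass the filter on low counts. Tested without that filter it was higher at 48 than at 0 h by 2.16 ± 0.567 (SE, adjusted p = 0.00101 by edgeR), from 1 to 4 reads per library to 10 to 15. Its other CTRL changes without the filter were 1.03 (adjusted p = 0.618 by edgeR) at 8 h and 1.46 (0.206) at 24 h, and its changes in inducible cells with the filter were 0.14 (interval −0.636 to 0.914) at 8 h and 0.41 (−0.328 to 1.14) at 24 h. Between the lines at 0 h, where *GPC2* did not pass the filter, the inducible libraries all held more reads than the CTRL libraries. The log2 difference there was 1.78 ± 0.597 without the filter (SE, adjusted p = 0.0125 by edgeR) and was called with all 24 libraries in one model, at 1.79 ± 0.499 (SE, adjusted p = 0.00361 by edgeR). At 8 h the values were 0.89 (adjusted p = 0.259 by edgeR) and 0.91 (0.084). Where *GPC2* passed the filter its line differences did not pass the threshold, at 0.74 ± 0.386 (SE, adjusted p = 0.1) at 24 h and 0.69 ± 0.319 (SE, adjusted p = 0.0892) at 48 h. Its interactions were −0.89 at 8 h (interval −2.26 to 0.485), −1.04 at 24 h (−2.38 to 0.296) and −1.12 at 48 h (−2.37 to 0.130).

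*SDC2*, the mesenchymal syndecan, never exceeded 4 reads in a library, *GPC3* 5 reads and *GPC4* 4 reads. All 8 h libraries of both lines were at 0 for *SDC2* and *GPC3*. The 3 genes had no group in which each library was above the floor of 3 reads, and no difference was detectable at this depth. Tested without the filter on low counts, none of them was called. The lowest adjusted p by edgeR was 0.113, for *GPC3* between lines at 24 h. Of the other glypicans, *GPC5* and *GPC6* had at most 2 reads in any library. The cells thus had reads above the floor in every library for 3 of the 4 syndecans and for *GPC1*.

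**Figure D4:**
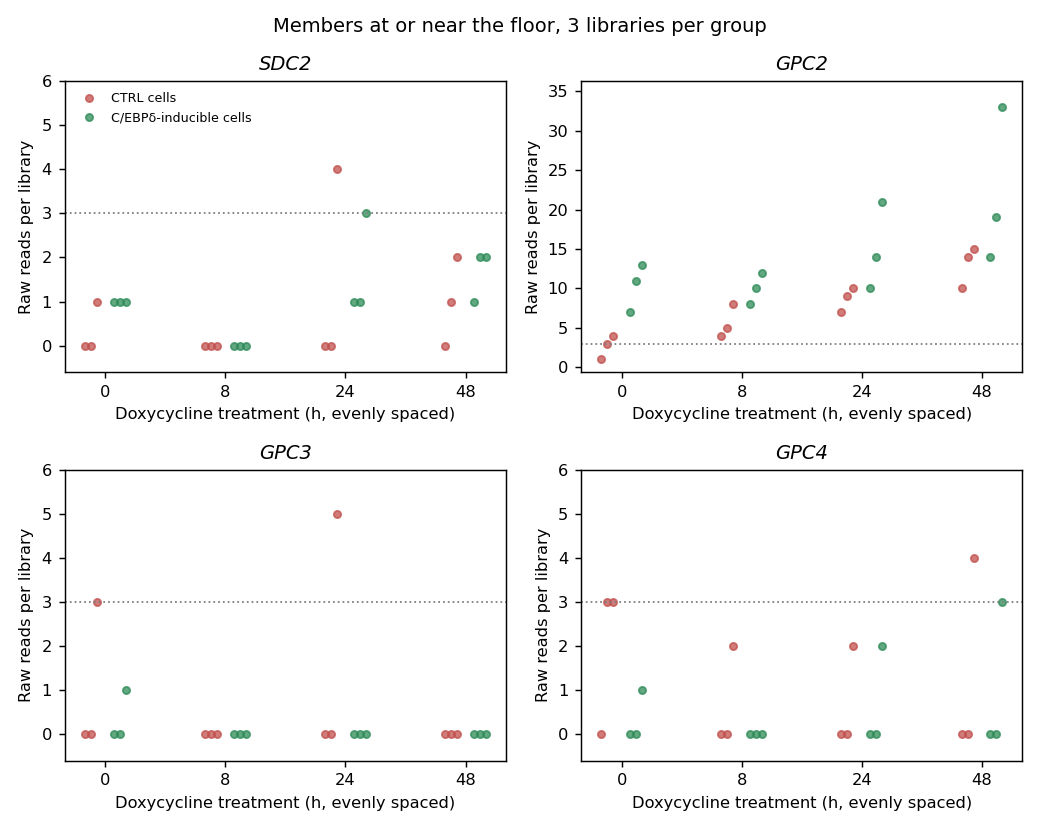
Raw reads per library (y axis) of *SDC2*, *GPC2*, *GPC3* and *GPC4* against hours of doxycycline (x axis, evenly spaced), 3 libraries per group, with points sorted by value within a group and a dotted line at the floor of 3 reads. *GPC2* runs from 1 to 33 reads with its highest values at 48 h, and the other 3 genes stay at or below 5 reads.

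The genes with the most similar profile were sought for each member that passed the filter on low counts over all 24 libraries. The 3 with the highest Pearson's r of log2 CPM over the 24 libraries were taken, among 17023 genes. These are descriptions across libraries that share their line and time, and carry no test. *SDC1* was most like *PTTG1IP* (r = 0.99), *NIBAN2* (0.987) and *VXN* (0.985), and *SDC4* most like *CASP2* (0.986), *TUBB2A* (0.984) and *PTTG1IP* (0.983). *SDC3* was most like *FLYWCH1* (0.933), *EIF2D* (0.928) and *SHROOM3* (0.924). *GPC1* had lower values, with *EHMT2* (0.894), *CSNK1G2* (0.866) and *FASN* (0.865), as did *GPC2*, with *ATP7A* (0.889), *COL6A4P1* (0.881) and *MED12L* (0.871). With Spearman's rho in place of r, 1 of the 3 genes named for *SDC1* and none of those for *SDC3*, *SDC4* and *GPC2* were named again.

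The genes that build, cut and bind the heparan sulfate of these proteins were taken as 10 lists of 116 genes in all, the core proteins left out. In the comparison of lines at 24 h 87 of them were tested, 30 were higher and 33 lower in inducible cells (72.4% called, where 22.1% of all genes tested were higher and 25.7% lower). At 0 h 24 of 85 were higher and 34 lower (68.2%; all genes 20.8% and 24.5%). In CTRL cells 5 rose and 12 fell at 24 h of 86 (19.8%; all genes 3.36% and 3.79%), and in inducible cells 15 rose and 20 fell of 87 (40.2%; all genes 7.78% and 8.64%). The interaction at 24 h was called in 7 genes upward and 13 downward of 88 (22.7%; all genes 3.24% and 3.31%). The lists were chosen with earlier results of these data known, so these shares do not set the lists apart from all genes. In the paragraphs on the lists, each value is a log2 difference followed in parentheses by the adjusted p of edgeR over all genes.

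The integrin partners of syndecans, the adhesion receptors with which *SDC1* and *SDC4* cooperate, differed between the lines in both directions. All 7 tested of 8 were called between lines at 24 h, 3 higher and 4 lower, with a median log2 difference of −0.77, against 0.00805 for all genes tested. *ITGA3*, a laminin receptor subunit, was −2.89 (adjusted p = 1.45e-38), *ITGB4* and *ITGA6*, the partners of the hemidesmosome integrin, were −2.13 (3.64e-33) and −1.95 (5.2e-22), and *ITGB5* was −0.77 (2.13e-11). The interaction at 24 h was called downward in 4 of 7, with *ITGB4* at −0.95 (1.35e-15), *ITGA6* at −0.70 (3.23e-09), *ITGA3* at −0.40 (9.65e-06) and *ITGB1* at −0.15 (0.00207). These lie on the same side as the −0.47 of *SDC4*.

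Among the 8 tested cytoplasmic partners of the syndecan tail, 2 were higher and 3 lower between lines at 24 h (median −0.087). *EZR*, ezrin, which ties membrane proteins to actin, was −0.99 (5.6e-31), the actin crosslinker *ACTN4* was −0.40 (1.22e-16) and *GIPC1* −0.31 (3.21e-07), whereas *PRKCA*, protein kinase C alpha, was 0.33 (3.62e-08). The interaction at 24 h was called for *EZR*, at −0.49 (1.39e-14), and *ACTN4*, at −0.19 (0.000221), 2 of 8, both downward.

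Heparan sulfate chains are started on a short sugar linker and lengthened by polymerases. Of 6 tested linker genes 2 were higher and 1 lower between lines at 24 h (median 0.046), *B4GALT7* at 0.40 (1.27e-05) and *B3GAT3* at −0.40 (1.81e-05). Of 4 tested heparan sulfate polymerases 2 were lower (median −0.25), *EXTL2* at −0.35 (0.000242) and *EXT2* at −0.32 (1.68e-08). *EXT1*, the partner of *EXT2* in the chain polymerase, rose at 24 h in both lines, by 0.43 (6.04e-06) in CTRL and 0.55 (9.21e-08) in inducible cells.

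Of 6 tested heparan sulfate modifying enzymes 2 were higher and 3 lower (median 0.093). *HS3ST3B1*, a 3-O-sulfotransferase, was 3.02 (2.88e-22) and the epimerase *GLCE* 0.75 (1.15e-12), whereas *HS6ST1* was −0.32 (4.82e-05). The list's called interaction at 24 h was *NDST1*, the first sulfating enzyme of the chain, at −0.24 (0.000112). For chondroitin and dermatan sulfate, chains that some syndecans also carry, 5 of 14 were higher and 5 lower (median −0.17). *CHST11*, a chondroitin 4-O-sulfotransferase, was 2.74 (7.05e-24) with an interaction of 1.89 (1.94e-08), the uronyl sulfotransferase *UST* was 2.71 (1.08e-20), and *CHST7* was 0.61 (0.000386) with an interaction of −0.94 (0.0013). Of 9 tested genes for sugar nucleotide and sulfate donors 2 were higher and 5 lower (median −0.28). The transporter *SLC35D2* was −1.67 (9.26e-23), and *PAPSS2* and *PAPSS1*, which make the sulfate donor, were 0.86 (1.63e-05) and −0.75 (5.26e-14). The interactions called in this list were *SLC35D2* at 0.50 (0.00164) and *UXS1* at 0.26 (0.0065), both upward.

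Of the enzymes that trim the chains or shed the core proteins 7 were tested between lines at 24 h, 2 were higher and 1 lower (median 0.27). *MMP14*, a membrane metalloprotease, was 0.53 (0.0068), the sheddase *ADAM10* 0.27 (1.99e-10) and the proprotein convertase *FURIN* −0.60 (1.09e-11). *ADAM17*, which sheds *SDC1* and *SDC4* proteins, had an interaction of 0.23 (0.00138), the 1 called of 8 tested. All 8 tested genes for other heparan sulfate carriers were called between lines at 24 h, 5 higher and 3 lower (median 0.28). *SPOCK2* was 1.64 (7.33e-06), *NRP1* 0.91 (1.64e-12), *HSPG2*, perlecan, 0.74 (2.56e-07) and the hyaluronan receptor *CD44* −0.95 (2.84e-32). *SPOCK2* was low, with 8 to 43 reads per library. The interaction at 24 h was called in 5 of these 8, upward for *SRGN*, serglycin, at 0.69 (8.15e-19), and downward in 4, such as *NRP1* at −0.52 (0.00119).

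Of 18 tested heparin-binding ligands and receptors 7 were higher and 6 lower between lines at 24 h (median 0.10). *FGF2*, the fibroblast growth factor that uses heparan sulfate as co-receptor, was 2.46 (1.03e-38) and its receptor *FGFR1* 1.67 (8.51e-27). *IGF2* was 2.58 (3.73e-15) and *FGF5* −1.70 (6.7e-08), both low, with 7 to 169 and 13 to 80 reads per library. The interaction was called in 3 of 18: *FGF2* at 0.59 (8.93e-06), *AREG*, amphiregulin, at 0.40 (2.42e-05) and *PDGFA* at −0.57 (1.3e-05). Exons of *FGF2*, *IGF2*, *FGF5*, *FGFR1*, *HSPG2*, *NRP1*, *CD44*, *ITGA6*, *ITGB1*, *EZR*, *ACTN4*, *NDST1*, *UST*, *EXTL2*, *PAPSS2*, *ADAM10* and *ADAM17* overlap an exon of another annotated gene, and the strand setting of the counting is not given in the sources used here, so reads of such partners cannot be told apart.

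**Figure D5:**
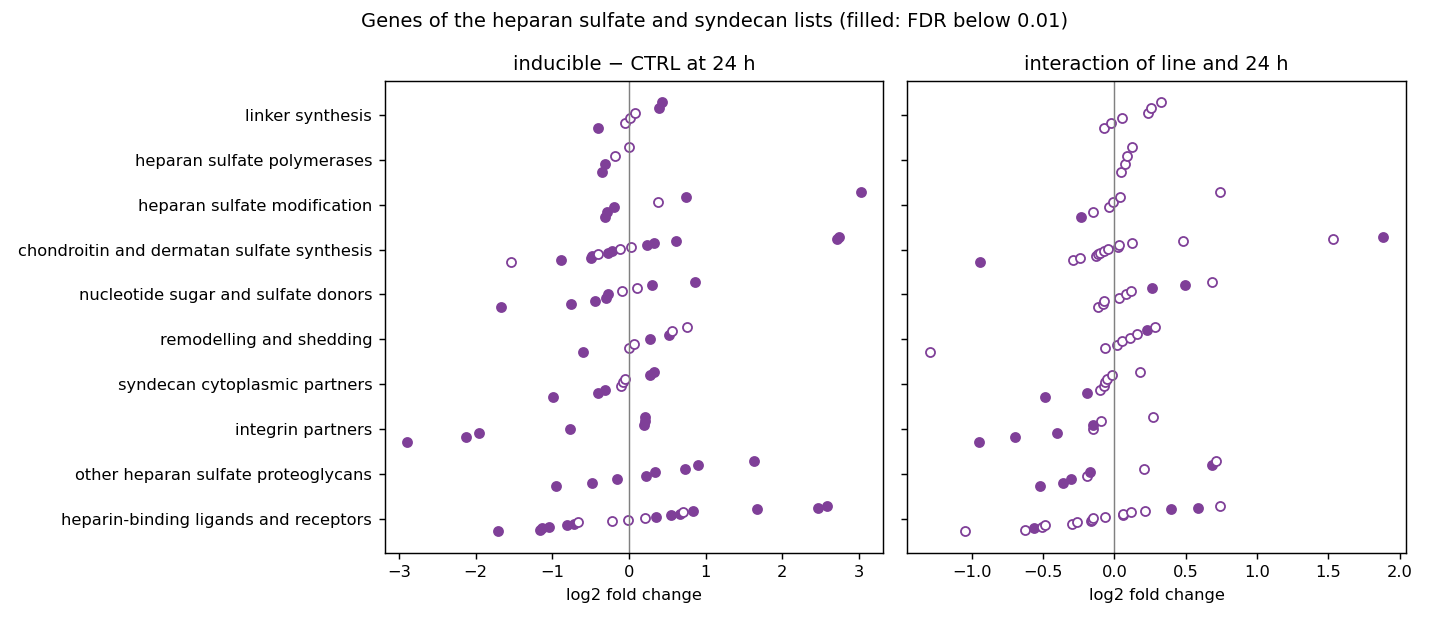
Log2 fold change (x axis) of each tested gene of the 10 lists (y axis), for inducible minus CTRL cells at 24 h (left) and for the interaction of line and 24 h (right), filled where the FDR was below 0.01. The integrin partners reach −2.89 (*ITGA3*) between lines, and *CHST11* has the largest filled interaction, 1.89.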

How the data were processed

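Total RNA of MIA PaCa-2 cells, depleted of ribosomal RNA, was sequenced with 50-base reads. The authors trimmed reads with Trimmomatic, aligned them with Hisat2 to GRCh38 (Ensembl 84) and deposited raw HTSeq counts per gene with no normalization, one column per library. Versions differ between the methods and the submitters' processing notes, which name Trimmomatic 0.36 and HISAT2 2.3.4.3. The strand setting of the counting is not given in the sources used here. Of 60675 identifiers, 56558 matched a GENCODE 44 symbol, among them all 8 members. Groups were taken from the labels.

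Each comparison was fitted on its own groups with edgeR 4.0.16 in R 4.3.3, with filterByExpr, TMM factors and the robust quasi-likelihood F-test. Calls were made at an FDR of 0.01. Standard errors were derived as the absolute log2 fold change divided by the square root of F. They and their intervals are approximate, above all for genes with few reads. Interactions compared the change from 0 h between lines. CPM were computed with TMM factors over all 24 libraries, whereas each fit used factors of its own libraries and filtered genes. CPM per kb used the merged exons of GENCODE 44. The alternatives were DESeq2 1.42.0, RLE size factors, a linear model per gene on log2(CPM + 1), no filter, at least 10 counts in every library, all 24 libraries in one model, the replicate number as a block, leaving out each library, levels without TMM factors, and Spearman's rho for the likeness. No exact permutation test was used, as the smallest p it allows between groups of 3 is 0.1. The fits of some comparisons were tested on simulated counts, with the same spread between replicates for each gene and changes in well-covered genes only. Low genes such as *GPC2* were not covered by that check.

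Members and *CEBPD* were named in each comparison in which they passed the filter. From each of the 10 lists, at most 4 called genes with the largest absolute log2 fold change were eligible, whatever their read counts. The 3 genes with the highest Pearson's r were named as most alike, and promoters were searched for 1 motif. The members and lists were chosen with earlier results of these data known. Libraries that share a replicate number deviated together in the comparison of CTRL cells at 24 and 0 h (r = 0.174 to 0.251). The values reported for that comparison come from a fit without pairing. With the replicate block, run as an alternative, 1 of 4 members was called there, as without it. In the other 9 comparisons of 2 groups the mean r was between −0.0559 and 0.0598. Depth was 12731237 to 22598595 counts per library, and the counts of replicates differed by more than sampling noise (chi-square per gene 1.66 to 16.7).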

Additional observations from a re-analysis of the deposited data

Results flagged for a closer look

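The change of *SDC4* from 0 to 24 h of doxycycline differed between the lines in a test of the difference itself, with an interaction of −0.47 on the log2 scale (adjusted p = 3.76e-10 by edgeR). All 3 inducible libraries of 24 h (80.98, 75.8 and 78.6 CPM) were below all 3 of 0 h (108, 113 and 109.7 CPM), whereas the CTRL libraries of 24 h (216, 216 and 214 CPM) lay within the range of those of 0 h (212, 216 and 219 CPM). Leaving out any 1 of the 12 libraries kept the call.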

How the results depend on the processing

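Of the 13 counts of members called, RLE size factors, DESeq2, a minimum of 10 counts, all 24 libraries in one model and the replicate block left each within 1.5 times of the value reported. With all 24 libraries in one model 4 of 5 members were called between lines at 0 h (*GPC2* in addition), 3 of 5 at 8 h (*GPC1* in addition) and 3 of 5 in CTRL cells at 48 h (*GPC2* in addition). The linear model per gene called 2 rather than 3 members between lines at 0 h (without *SDC3*), 0 rather than 1 in CTRL cells at 24 h, 1 rather than 2 at 48 h, and in inducible cells 1 rather than 2 at 8 h, 1 rather than 2 at 24 h and 2 rather than 4 at 48 h; the time calls lost were all 4 of *SDC1*, that of *GPC1* at 8 h and that of *GPC2* at 48 h. Over all genes it called fewer in each of the 13 comparisons, by more than 1.5 times, for example 39 rather than 1087 in CTRL cells at 24 h and 498 rather than 2555 in inducible cells at 24 h. Other settings moved the calls over all genes by more than 1.5 times in CTRL cells at 8 h (319, against 870 without filter, 1260 with all libraries and 111 with the replicate block) and 24 h (1087 against 590 with all libraries), in inducible cells at 8 h (4985 against 3123 with all libraries), and in the interactions at 8 h (340 against 879 without filter) and 24 h (1062 against 623 with all libraries). Without the filter the interaction at 8 h had 1 member called (*SDC3*) rather than 0. Over leave-one-out fits the counts ran from 0 to 2 for CTRL cells at 24 h (0 without CTRL 0 h replicate 3, 2 without CTRL 0 h replicate 1), 0 to 1 for the interaction at 8 h (1 without CTRL 8 h replicate 3) and 1 to 2 for the interaction at 24 h (2 without CTRL 0 h replicate 1 or CEBPD 24 h replicate 3). The *SDC4* interaction at 24 h was called under every alternative run.

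Directions turned only for values that were not called. The 48 h interaction of *SDC4*, −0.00018 as reported, was 0.013 with RLE, 0.0127 with DESeq2, 0.00425 with the linear model, 0.00673 without filter, 0.0217 with 10 counts, 0.0149 with all libraries, 0.00041 with the replicate block, and −0.0404 to 0.0232 over leave-one-out fits. The leave-one-out ranges were −0.0491 to 0.0371 for *GPC1* between lines at 0 h, −0.0552 to 0.0559 for *SDC3* between lines at 8 h, −0.0630 to 0.144 for *CEBPD* in CTRL cells at 48 h, and in inducible cells −0.0488 to 0.405 for *GPC2* at 8 h and −0.0835 to 0.0184 and −0.0534 to 0.0694 for *GPC1* at 24 and 48 h. The cause of these turns was not tested. The replicate block changed no call of a member. Of the list counts, 295 stayed within 1.5 times and 55 were lower, 31 of them under the linear model. Levels without TMM factors stayed within 1 SD in 57 of 64 cases. Depth limits *GPC2*, *SDC2*, *GPC3* and *GPC4*, for which only large changes could be seen.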
